A study of Arabidopsis thaliana with 6 samples.

Results

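The 71 genes described here were already measured at a moderate or high level in uninduced Arabidopsis thaliana suspension cells and were higher on every array of cells induced for VND1. They were chosen by the measured values themselves. A gene had to have an uninduced mean of at least 7 on the log2 scale of the deposited values, an induced minus uninduced difference of at least 0.6 (1.52-fold) in each of 2 runs of arrays, and all 3 induced arrays above all 3 uninduced arrays. Of 16550 genes with a probe of their own, 5580 had an uninduced mean of at least 7 and 77 of those met every condition. GUT2, HCT, PRX52, scpl48, AT2G28315 and AT2G43120 met them but were set aside by name. AT1G60810 (ACLA-2), also set aside by name, had an uninduced mean of 6.38. The rest are the 71, which are 1.27% of the genes at that level. Because the comparison of induced with uninduced arrays chose the genes, their differences are given as a description and carry no test.

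All samples were suspension cells transformed with an estrogen-inducible VND1-GFP construct and kept in the dark at 23 °C on a rotary shaker. The induced group is 3 arrays from cells given 5 µM estrogen for 24 h, and the uninduced group is 3 arrays from cells of the same genotype kept for 24 h without it. Both groups carry the construct, and no estrogen-treated cells without it were analysed here, so effects of VND1 and of estrogen cannot be told apart. Whether the 3 arrays of a group stand for 3 cultures is not stated in the labels, and the spread between them may be technical. In whole-culture RNA, more cells of a kind and more RNA per cell cannot be told apart.

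VND1 is a NAC transcription factor of the family that starts the differentiation of xylem vessel elements. A vessel element enlarges, lays down a thick patterned secondary wall of cellulose, xylan and lignin, and then dies and digests its contents, leaving a tube that conducts water. Genes used only for that wall are often silent in undifferentiated cells. A cell already runs the processes that supply a wall, such as sugar modification, lipid and acetyl-CoA metabolism, protein turnover in the vacuole and membrane traffic, so genes of those processes start from a level that can be measured.

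By the array numbers given with the samples, replicate 1 of each group belongs to a run of 2 consecutive arrays and replicates 2 and 3 to a run of 4. What the numbers stand for is not stated. The median probe lay at 6.08 to 6.15 in the run of 2 and at 5.41 to 5.55 in the run of 4. The median gene differed by 0.00 between induced and uninduced arrays, and the median gene with an uninduced mean of at least 7 by -0.05. Only 3 arrays per group limit the precision. All 71 genes lay above the array's own median on all 3 uninduced arrays, and 30 lay above its upper quartile (7.79 to 7.99) on all 3. No detection call was used, so "already expressed" here means a value above the bulk of the probes. Values of different genes come from different probes and are not set against each other as amounts of RNA.

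The differences were modest. The induced minus uninduced difference ran from 0.62 to 2.41 on the log2 scale, with a median of 0.95, a fold of 1.93. In 33 genes it was at least 2-fold and in 38 less. The gap between the lowest induced and the highest uninduced array had a median of 0.67 and was as small as 0.02. Within the runs the medians were 0.96 in the run of 2, with 1 array per group, and 0.93 in the run of 4. Uninduced means ran from 7.005 to 10.81 with a median of 7.82. A moderated test in limma over all 38408 probes (Benjamini-Hochberg adjusted p under 0.05) called 18 of the 71 higher, beside 0.412% of all genes with an uninduced mean of at least 7 and 0.568% of all genes. Nothing is read from that count, because the rule used the same contrast, and it ran from 0 to 51 over the alternative settings. Of genes at that level, 10.2% had all induced arrays above all uninduced arrays.

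**Figure D1:**
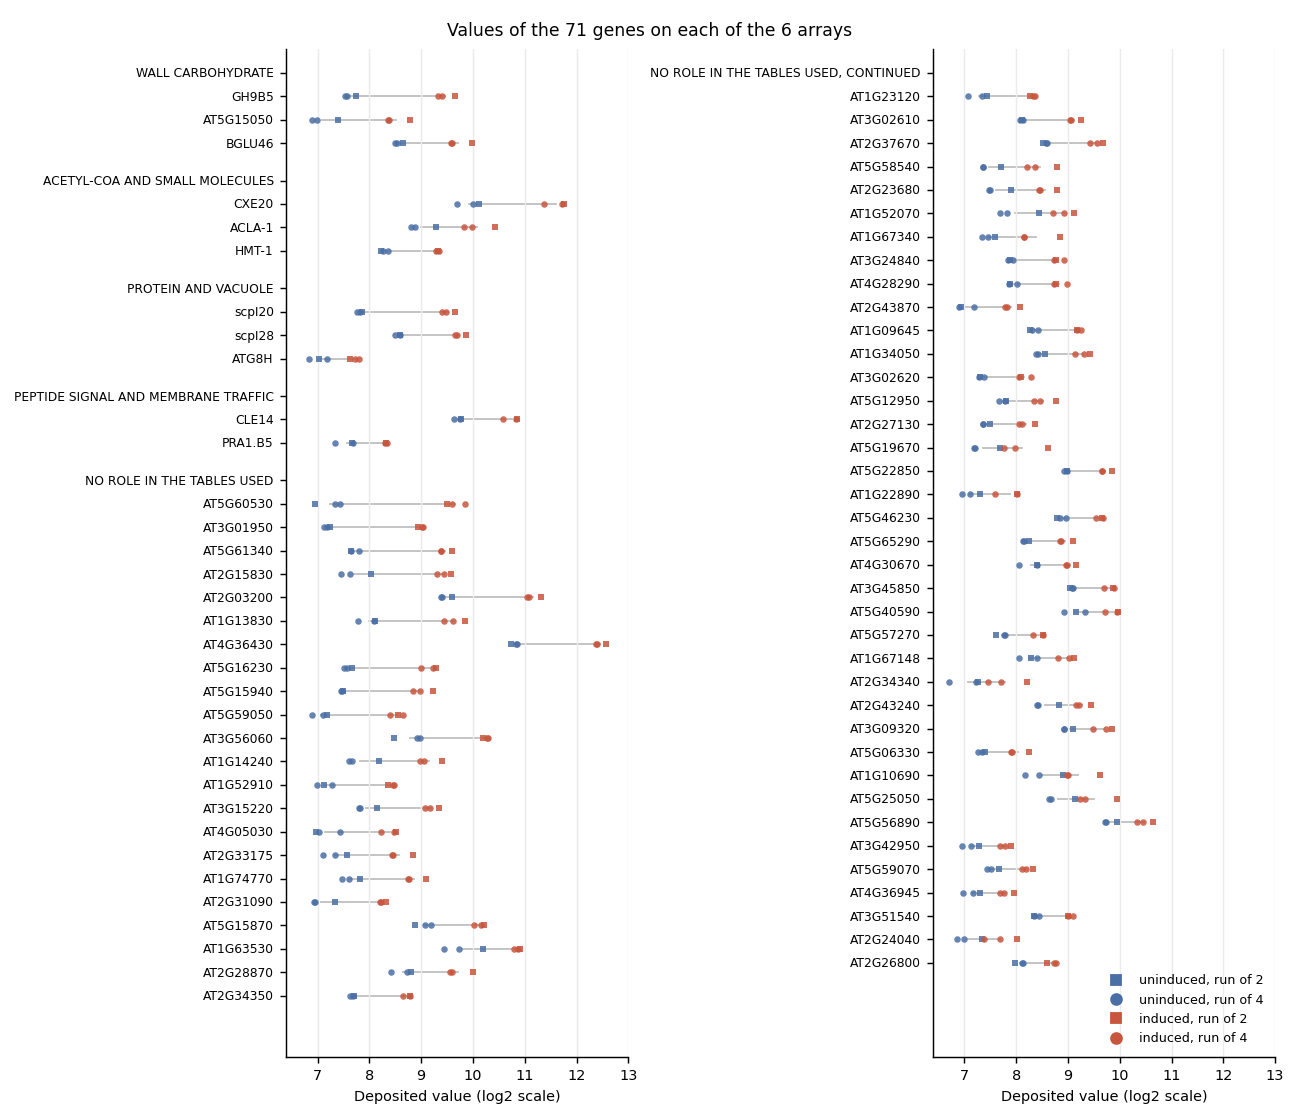
Value of each of the 71 genes on each array (x axis, log2 scale), with the 11 annotated genes grouped by what they code for and the other 60 in order of difference. Blue points are uninduced and red points induced arrays, squares mark the run of 2 arrays and circles the run of 4, and grey lines join the group means. Red and blue points do not overlap for any gene because the rule asked for that, and the differences run from 0.62 to 2.41.

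The tables used here annotate 11 of the 71 genes, 10 by a gene symbol and AT5G15050 by a synonym. The other 60 are given there by locus only, so they are described by their values and no role is stated for them. The gene identifier that the array annotation gives for CLE14 was not matched in the gene table, so CLE14 has no position or length here. The groups below were made after the genes were known and have no test. Relatives of the ATP-citrate lyase gene were found by locus and those of the other genes by the start of the symbol, so relatives listed under another symbol are not counted. Many relatives could not enter the set because of their level. An uninduced mean of at least 7 was reached by 7 of 22 BGLU, 10 of 32 scpl and 4 of 16 CLE genes. The same held for 8 of 14 PRA1 genes and for 7 of 7 genes with an ATG8 symbol.

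3 of the 11 code for enzymes that act on wall or other carbohydrates. GH9B5, a glycosyl hydrolase family 9 protein of the class that includes plant endoglucanases, gave 7.75, 7.53 and 7.57 on the uninduced arrays and 9.65, 9.32 and 9.41 on the induced arrays. The difference was 1.85 ± 0.15 (moderated SE), or 3.60-fold, and the groups lay 1.57 apart. Of 19 measured genes with a GH9 symbol only 3 had an uninduced mean of at least 7, and GH9B5 was the only member of the set. The other 18 differed by -0.26 to 0.77, with a median of 0.06, and 0 of those 18 were called by limma.

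BGLU46 is a β-glucosidase that can release lignin precursors from their glucosides. Uninduced arrays gave 8.66, 8.51 and 8.54 and induced arrays 9.98, 9.57 and 9.61, a 2.22-fold difference of 1.15 ± 0.16. All 3 induced values lay at least 0.92 above the highest uninduced one. Of the 21 other measured genes with a BGLU symbol limma called 1, and this was BGLU41 (2.70 ± 0.20, SE, adjusted p = 0.00796), which started at 5.03 and so lies outside the set. BGLU45, next to BGLU46 in the genome, had an uninduced mean of 3.88 and an adjusted p of 1.0 in limma for a difference of 0.53 ± 0.68 (SE). The median over the 21 others was 0.01.

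AT5G15050 carries the synonym GlcA transferase 14B, an enzyme that adds glucuronic acid to the arabinogalactan chains of wall glycoproteins. It had 7.39, 6.89 and 6.99 on uninduced and 8.79, 8.39 and 8.36 on induced arrays, a 2.67-fold difference of 1.42 ± 0.21. Its groups did not overlap, and the rises in the 2 runs were within 0.03 of each other.

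3 genes code for enzymes of acetyl-CoA and small molecules. CXE20, a carboxylesterase, had 10.11, 9.999 and 9.69 on uninduced and 11.76, 11.71 and 11.37 on induced arrays, a 3.21-fold difference of 1.68 ± 0.18. It was also among the 5 genes with the highest uninduced means. HMT-1, a homocysteine S-methyltransferase that makes methionine, had 8.22, 8.35 and 8.27 against 9.33, 9.35 and 9.28, a difference of 1.04 ± 0.12. Its arrays varied little, with an SD of 0.07 in uninduced and 0.04 in induced arrays (n = 3).

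ACLA-1 codes for a subunit of ATP-citrate lyase, which makes acetyl-CoA in the cytosol. Its values were 9.28, 8.88 and 8.80 on uninduced and 10.42, 9.83 and 9.97 on induced arrays, a difference of 1.09 ± 0.23. In each group the array of the run of 2 was the highest, and the rises within the runs were 1.14 and 1.06. Of the other 3 measured subunit genes, ACLA-2 differed by 1.96 ± 0.17 (SE, adjusted p = 0.0155 in limma) from its uninduced mean of 6.38. ACLB-1 gave 0.21 ± 0.12 and ACLA-3 gave 0.15 ± 0.14 (SE, limma adjusted p = 1.0 for each).

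3 genes were grouped under proteolysis and autophagy, of which autophagy in plants ends in the vacuole. Where the 2 serine carboxypeptidase-like proteins act was not tested. The serine carboxypeptidase-like gene scpl20 gave 7.86, 7.77 and 7.83 on uninduced and 9.65, 9.40 and 9.48 on induced arrays, a 3.23-fold difference of 1.69 ± 0.13. The related gene scpl28 had 8.58, 8.598 and 8.50 against 9.87, 9.70 and 9.65, a difference of 1.18 ± 0.13. In both genes the uninduced arrays were within 0.1 of each other. The median over the other 30 measured genes with an scpl symbol was 0.04, with a range of -0.64 to 0.75. The highest of these was scpl48, at 0.75 ± 0.11 (SE) from an uninduced mean of 12.33. It met the rule too and is outside the set only because it was set aside by name.

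ATG8H codes for an ATG8 protein, which is anchored in the autophagosome membrane. Uninduced arrays gave 7.02, 7.18 and 6.84 and induced arrays 7.63, 7.73 and 7.81, a difference of 0.71 ± 0.15. It lay close to both thresholds, with an uninduced mean of 7.01 and a rise of 0.60 in the run of 2. The other 6 measured genes with an ATG8 symbol differed by -0.06 to 0.27. The autophagy list holds APG8A and APG8H as well, at 0.24 and 0.19 from uninduced means of 6.62 and 9.43, so APG8A lay below the level of 7. Of the 33 genes listed for autophagy 10 were measured, and limma called 0 in either direction (at an unadjusted p under 0.05, 1 was higher and 0 lower). The 1 was ATG8H itself, which the rule chose on the same contrast, so nothing is read from that count. The list's median was 0.16.

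**Figure D2:**
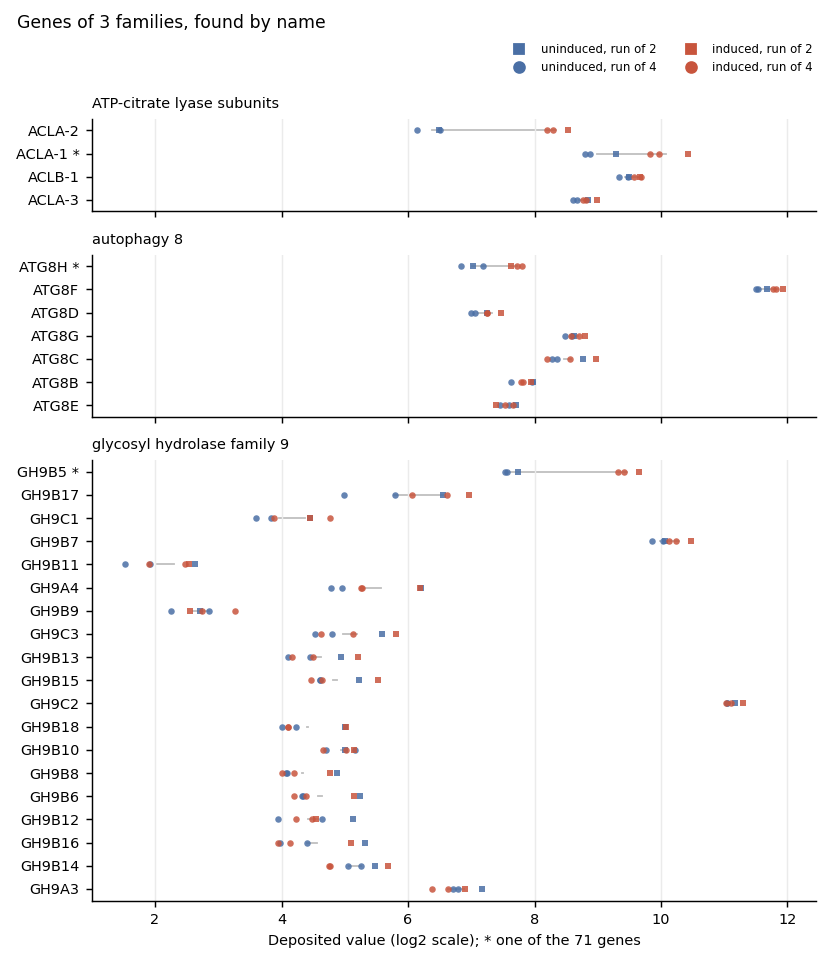
Values on each array (x axis, log2 scale) of the ATP-citrate lyase genes and of the measured genes with an ATG8 or GH9 symbol, with asterisks on those among the 71; colours and symbols are as in the plot of all 71 genes. ACLA-1, ATG8H and GH9B5 carry the asterisks, and ACLA-2 is apart between groups by 1.96 but starts at 6.38, below the level the rule asked for.

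The last 2 of the 11 code for a peptide signal and a protein of membrane traffic. CLE14 codes for a small secreted peptide of the CLE family, whose best-known relatives control stem cells and vascular differentiation. Its values were 9.77, 9.63 and 9.75 on uninduced and 10.85, 10.57 and 10.83 on induced arrays, a 2.05-fold difference of 1.03 ± 0.14. Of the 15 other measured genes with a CLE symbol limma called 0, and the largest difference was that of CLE41, a peptide that represses xylem formation, at 0.61 ± 0.16 (SE, limma adjusted p = 0.586).

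PRA1.B5, a prenylated RAB acceptor of the secretory membranes, had 7.67, 7.33 and 7.68 against 8.32, 8.33 and 8.30, a difference of 0.76 ± 0.15. The 13 other measured genes with a PRA1 symbol differed by -0.05 to 0.49, and limma called 0 of the 13. The nearest to it was PRA1.B4, at 0.49 ± 0.13 (SE, limma adjusted p = 0.519).

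The 60 genes known by locus differed by 0.62 to 2.41, with a median of 0.92, and include 9 of the 12 largest differences. AT5G60530 had the largest difference of all 71. It gave 6.95, 7.44 and 7.33 on uninduced and 9.50, 9.59 and 9.85 on induced arrays, a 5.30-fold difference of 2.41 ± 0.19, and its groups lay 2.06 apart.

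AT3G01950 had 7.24, 7.19 and 7.12 against 8.94, 9.01 and 9.04, a difference of 1.81 ± 0.12. AT5G61340 gave 7.65, 7.79 and 7.64 and 9.59, 9.39 and 9.39, a difference of 1.76 ± 0.13. AT2G15830 gave 8.03, 7.45 and 7.62 and 9.57, 9.44 and 9.30, a difference of 1.74 ± 0.19. In all 3 genes the lowest induced array was more than 1.2 above the highest uninduced one.

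AT2G03200 had 9.59, 9.38 and 9.40 on uninduced and 11.32, 11.09 and 11.05 on induced arrays, a difference of 1.70 ± 0.14. AT1G13830 had 8.10, 8.09 and 7.78 and 9.85, 9.62 and 9.45, a difference of 1.65 ± 0.17. AT5G15940 had 7.50, 7.47 and 7.46 and 9.23, 8.98 and 8.85, a difference of 1.55 ± 0.15. The groups lay more than 1.3 apart in each of them.

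AT4G36430 started highest of the 71 on its own probe, with 10.74, 10.84 and 10.83 on uninduced arrays, and reached 12.56, 12.40 and 12.38, a difference of 1.64 ± 0.12. AT5G16230 gave 7.67, 7.51 and 7.57 and 9.28, 9.01 and 9.22, a difference of 1.59 ± 0.14. A second probe of AT5G16230, with an uninduced mean of 4.13, was 0.78 higher on the induced arrays. AT5G16230 was the only one of the 71 with a second probe.

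AT5G56890 also belongs to the 5 highest uninduced means, with 9.95, 9.71 and 9.74 against 10.64, 10.33 and 10.45 and a difference of 0.68 ± 0.15. AT1G63530, another of the 5, had 10.19, 9.72 and 9.44 on uninduced and 10.92, 10.87 and 10.79 on induced arrays. Its rise was 0.73 in the run of 2 and 1.25 in the run of 4, the widest disagreement between the runs. The uninduced array of the run of 2 was above the other 2 uninduced arrays.

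AT1G67340 had 7.59, 7.34 and 7.45 against 8.85, 8.16 and 8.15, a rise of 1.27 in the run of 2 and 0.76 in the run of 4. AT4G05030 had 6.97, 7.44 and 7.04 against 8.51, 8.23 and 8.48, with rises of 1.54 and 1.12. Both genes differed more in the run of 2, and in neither did the groups overlap.

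At the other end, 3 genes had almost equal rises in the runs. AT4G30670 had 8.40, 8.39 and 8.06 against 9.15, 8.99 and 8.97, with 0.75 in both runs. AT4G36945 had 7.29, 6.98 and 7.16 against 7.96, 7.69 and 7.76, with 0.66 in both. AT3G51540 had 8.35, 8.44 and 8.35 against 8.99, 8.99 and 9.10, with 0.64 and 0.65.

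The remaining 44 genes differed by 0.62 to 1.47, with a median of 0.83, from uninduced means of 7.005 to 9.14. In 13 of them the difference was at least 1. These were AT5G59050, AT3G56060, AT1G14240, AT1G52910, AT3G15220, AT2G33175, AT1G74770, AT2G31090, AT5G15870, AT2G28870, AT2G34350, AT1G23120 and AT3G02610. In the other 31 it was under 1, as in AT2G37670, AT5G58540, AT2G23680, AT1G52070, AT3G24840, AT4G28290, AT2G43870, AT1G09645, AT1G34050, AT3G02620, AT5G12950, AT2G27130, AT5G22850, AT1G22890, AT5G46230 and AT5G65290. The same holds for AT3G45850, AT5G40590, AT5G57270, AT1G67148, AT2G34340, AT2G43240, AT3G09320, AT5G06330, AT3G42950, AT5G59070, AT2G26800 and the 4 genes named next.

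In 4 of the 71 genes the groups were less than 0.1 apart, and in 16 they were at least 1 apart. AT5G19670 had 7.69, 7.18 and 7.20 against 8.62, 7.76 and 7.98, and AT1G10690 had 8.90, 8.44 and 8.17 against 9.61, 8.98 and 9.01. AT5G25050 had 9.14, 8.63 and 8.68 against 9.94, 9.33 and 9.23, and AT2G24040 had 7.35, 6.86 and 6.98 against 8.01, 7.37 and 7.68. In each of these 4 the uninduced array of the run of 2 was the highest of its group and came close to the lowest induced array.

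The sizes agreed closely between the runs, which the thresholds in each run in part ensure. The rises within the runs differed by less than 0.2 for 50 of the 71 genes and by at most 0.52. The rise was larger in the run of 2 for 47 genes and in the run of 4 for 24. Across the 71 genes the rises in the runs had a Pearson correlation of 0.89, and the difference and the uninduced mean one of -0.01. These are descriptions over genes that share the same 6 arrays. With any single array left out the lowest difference was 0.46, and its sign is fixed by the rule, which let no arrays overlap.

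**Figure D3:**
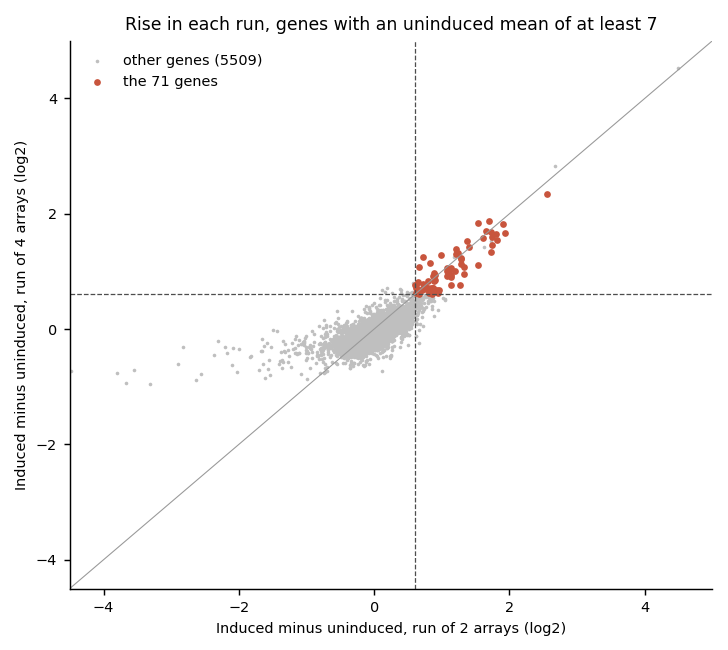
Induced minus uninduced difference in the run of 2 arrays (x axis, log2, 1 array per group) and in the run of 4 (y axis, log2) for the 5580 genes with an uninduced mean of at least 7. Red points are the 71 genes, dashed lines mark the threshold of 0.6, the solid line marks equality, and grey points beyond both thresholds include 6 of the genes set aside by name. The red points follow the line of equality, with differences between the runs of up to 0.52.

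The thresholds cut through a continuous range. AT2G24040 (0.60), ATG8H (0.60) and AT2G26800 (0.61) had the smallest rises in their weaker run, and AT1G06470 (0.59), AT1G49740 (0.59) and AT1G14210 (0.57) were the nearest left outside. By level, AT2G43870 (7.005), ATG8H (7.01) and AT5G59050 (7.06) were the lowest inside. AT3G47400 (6.86), AT2G21185 (6.86) and AT2G05320 (6.85) met every other condition. Turning the rule around, 28 genes with an uninduced mean of at least 7 were lower by the same size in both runs with no overlap.

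The difference between the runs is given as a description, because the rule limited it. A gene shifted between the runs by more than its rise would have had overlapping groups. With group and run as terms, limma called 12 of the 71 (16.9%), all higher in the run of 2, and 1019 of 5509 other genes at that level (18.5%). Over all 5580 genes 18.5% were called, and nothing is read from the members' share beside it. The median shift was 0.18 for the 71 and 0.16 for the others. These calls depend on the scale of the arrays. At the adjusted threshold limma called 0 of the 71 after quantile normalization, beside 3.58% of genes at that level. After centring each array on its median it called 45, beside 68.4%. At an unadjusted p under 0.05, 14 of the 71 differed after quantile normalization. The share of genes at that level was not counted at that p, so the 14 cannot be set against 3.58%.

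**Figure D4:**
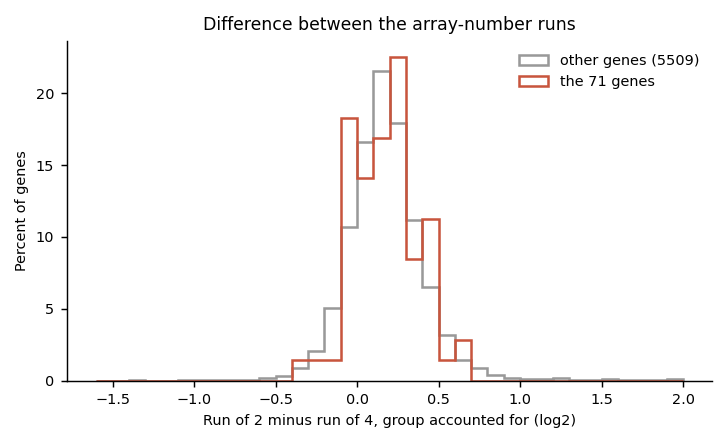
Difference between the run of 2 and the run of 4 (x axis, log2, from the fit with group and run), as the percent of genes in bins 0.1 wide, for the 71 genes (red) and the 5509 other genes with an uninduced mean of at least 7 (grey). The 71 run from -0.32 to 0.62 around a median of 0.18, beside a median of 0.16 for the others.

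Position in the genome was not used by the rule. 2 pairs of direct neighbours are both in the set, AT3G02610 with AT3G02620 and AT2G34340 with AT2G34350. The 88 other measured direct neighbours had a median difference of 0.01, and 51.1% of them were positive, beside 49.2% of all genes. AT1G52060, next to AT1G52070, stood highest among them at 3.15 ± 0.68 (SE), from an uninduced mean of 3.84. AT2G43880, next to AT2G43870, gave 0.88 ± 0.21. The annotated gene span had a median of 2167 bases in 70 of the genes and 2529 in genes at that level.

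Few of the genes on the lists for the wall, its supply and autolysis were measured by name. 1 of the 71 was on the autolysis and proteolysis list, scpl20, and 1 on the autophagy list, ATG8H. None of the 71 was on any other list, those of the supplying pathways included. Of 6 measured autolysis and proteolysis genes limma called 1 higher and 0 lower (3 and 0 at an unadjusted p under 0.05), with a list median of 0.27. The gene called was scpl20, which the rule chose on the same contrast. On the same list scpl48, set aside by name, gave 0.75 ± 0.11 (SE, limma adjusted p = 0.105). The vacuolar protease gene GAMMA-VPE gave 0.44 ± 0.18 (SE, limma adjusted p = 0.866). Of 7 xylan genes 4 were higher and of 3 monolignol genes 1, with medians of 2.78 and 0.28, and 0 were lower by limma (0 also at an unadjusted p under 0.05). The xylan genes called include GUT2, and the monolignol gene called was HCT. Both met the rule and were set aside by name.

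Limma called 0 genes in either direction on the remaining lists. Of 3 measured nucleotide sugar genes (median 0.20), 1 was higher at an unadjusted p under 0.05, and this was USP at 0.35 ± 0.11 (SE, limma adjusted p = 0.737), which makes UDP-sugars from sugar phosphates. Of 7 primary wall genes (median 0.12) 2 were higher at an unadjusted p under 0.05, and of 5 vacuolar proton pump genes (median 0.19) 1, namely VHA-A1 at 0.42 ± 0.13 (SE, limma adjusted p = 0.714). Of 4 early secretory genes (median 0.14) and 5 folding genes of the endoplasmic reticulum (median 0.11), 0 lay under an unadjusted p of 0.05. The 2 measured genes of the methyl donor list had a median of -0.08 (0 at an unadjusted p under 0.05). All genes tested had a median of 0.00, with 94 called higher and 0 lower (574 and 407 at an unadjusted p under 0.05).

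Few markers of other cell types could be looked for by name. Of 41 photosynthesis genes 6 were measured, of 23 phloem genes 1 and of 19 procambium genes 2, and none of these 9 is among the 71. They had medians of -0.09, 0.20 and 0.00 in that order, and limma called 0 of these 9 (0 at an unadjusted p under 0.05). The 2 measured heat shock genes had a median of -0.68 (0 called, 1 lower at an unadjusted p under 0.05). No shikimate pathway gene and no gene of the list of secondary wall cellulose and regulators, VND1 included, was measured by name, so the induced gene itself was not analysed here.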

How the data were processed

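RNA of 6 cell samples was measured on Affymetrix AraGene arrays. The deposited values are on a log2 scale, judged from their range. The submitters' processing notes name version 1.3 of Affymetrix Expression Console, and the summary and normalization method is not given in the sources used here. No further normalization was applied. Of 38408 probes, 16722 have 1 gene in the array annotation, 759 several and 20927 none. The values of 7132 probes are identical to those of another probe, and each of these counted in the fits over all probes. The probe with the highest mean stood for each of 16550 genes, and symbols were updated through a RefSeq gene table.

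Induced and uninduced arrays were compared in R 4.3.3 by limma, version 3.58.1 (lmFit and eBayes, 3 arrays per group) over all probes, with Benjamini-Hochberg adjustment and a threshold of 0.05. The runs were compared in a fit with group and run. The scripts were tested on simulated data. Alternatives were the run as a block, quantile normalization, median centring, trend and robust estimation, leaving out the lowest 25% of probes, leaving out each array, and other thresholds of the rule. Fits on 1 run only were added after seeing the data. The members and lists were chosen with earlier results of these data known. Values on every array are given for the 12 largest differences, the 5 highest uninduced means, the 3 largest and 3 smallest disagreements between the runs, genes on a list, and the annotated genes. The 4 genes whose groups lay closest were chosen after their values were seen. Roles are stated only for genes that the tables name. No sequences are printed, and searches of promoters and proteins were not run.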

Additional observations from a re-analysis of the deposited data

How the results depend on the processing

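Under quantile normalization and median centring, all 142 single differences of the 71 genes moved by less than the larger of the gene's SDs in the 2 groups. Centring moves every difference by the same amount, as in GH9B5 from 1.85 to 1.87, so its 71 results are not separate checks. Leaving out 1 array cannot turn a difference or move it that far, by the rule and by the size of the groups. The rule picked 30 genes with an uninduced mean of at least 8 and 28 with a rise of at least 1, where it picked 71 as described. Centring the arrays gave 68 genes, 59 of them among the 71, and quantile normalization gave 73, 69 of them among the 71. The limma count of the 71 depended on the fit. It was 18 as described, 45 with the run as a block, 6 in the run of 4 alone, 35 after quantile normalization, 51 with trend and robust estimation and 32 without the lowest 25% of probes. Leaving out 1 array gave 0 to 8, and 66 to 71 at an unadjusted p under 0.05. The rule chose the 71 on the same contrast, so nothing is read from these counts. At the adjusted threshold the count was 0 without induced replicate 2 or 3 or uninduced replicate 2 or 3. It was 5 without induced replicate 1 and 8 without uninduced replicate 1. Over all probes, 205 were higher as described, 381 with the block, 318 after quantile normalization and 351 with trend and robust estimation. That count of probes was 56 to 154 with 1 array left out. Lower probes numbered 0 in the limma fit as described (1053 at an unadjusted p under 0.05), 13 with the block, 3 in the run of 4, 5 after quantile normalization, 14 with trend and robust estimation and 1 without the lowest 25%. Higher autolysis and proteolysis genes numbered 2 with the block, with trend and robust estimation and without the lowest 25%, and 0 to 1 with 1 array left out. With 1 array left out, 2 to 6 xylan genes and 0 to 1 monolignol genes were higher. Of the 71, 0 differed between runs after quantile normalization and 45 after centring, beside 3.58% and 68.4% of genes at that level. At an unadjusted p under 0.05 the first count was 14, with no share of genes at that level counted. The cause of these changes was not tested. Replicate numbers follow sample order, and the labels do not pair the arrays within the run of 4, so the run served as the block. In the run of 2 that block pairs replicate 1 of both groups. The SEs given for single genes are from the fit as described, without the run. Only 3 arrays per group limit the precision, and signal over background was not analysed here.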

Other observations

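Probes without a single named gene were outside the set. Of 7000 distinct such probes with an uninduced mean of at least 7, 83 (1.19%) met the same thresholds, beside 1.38% of named genes at that level before any were set aside by name. Their differences ran from 0.62 to 5.51 with a median of 0.94.

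The spread between arrays of a group was set beside that of all genes at the same level. For the 71 genes the median SD over their 3 uninduced arrays was 0.15, and over all genes with an uninduced mean of at least 7 it was 0.12. For induced arrays the medians were 0.14 and 0.15. The rule used these same values and let no arrays overlap, which limits the spread of the 71, so nothing is read from the comparison.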
